A study of Homo sapiens with 9 samples.

Results

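The 9 genes described here mark the switch between epithelial and mesenchymal cells. They were taken by symbol from a table of histone H2A over 20318 protein-coding genes, and all 9 were found there. They are the transcription factors SNAI1, SNAI2, ZEB1, ZEB2 and TWIST1, the cadherins CDH1 and CDH2, the filament protein VIM and the matrix protein FN1. The cells were of the human line T47D-MTVL, a luminal breast cancer model with an integrated reporter under the mouse mammary tumour virus promoter. All cultures were kept in serum-free medium. R5020, a synthetic progestin, was given at 10 nM for 30 or 60 min, and cells at 0 min were unstimulated. H2A was profiled by chromatin immunoprecipitation and sequencing at 0, 30 and 60 min. HP1γ, a heterochromatin protein, LSD1, a histone demethylase, and BPTF, a subunit of the remodelling complex NURF, were profiled at 0 and 30 min. Each antibody and time had 1 library, so no difference has a replicate check and no p-value is given.

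In epithelial cells CDH1, E-cadherin, holds neighbouring cells together at adherens junctions. SNAI1, SNAI2, ZEB1 and ZEB2 are zinc finger repressors that bind E-box sequences and silence CDH1, and TWIST1 is a basic helix-loop-helix factor that promotes the same switch. Cells that complete it make CDH2 (N-cadherin), VIM (vimentin) and FN1 (fibronectin). SNAI1 is known to bind LSD1 and to bring it to the genes it represses, which is why LSD1 near these genes is of interest. Luminal breast cancer cells are known to keep CDH1 on and most of the mesenchymal genes off. The files hold no RNA, so that state was not checked here.

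H2A is a core histone, and its reads over a gene body follow how much nucleosomal DNA was recovered there. Values are RPKM, reads scaled to the length of the gene and the size of the library. The H2A libraries held about 140.8 M, 168.7 M and 133.1 M reads at 0, 30 and 60 min, read off from the size of 1 read in the RPKM of short genes. The RPKM in this table also grows with the number of transcripts annotated for a gene, so a gene was compared with itself over time, and its level was not set against that of another gene. A change is the log2 ratio of RPKM plus 0.05, and its counting standard error covers the sampling of reads only. For that error, the reads of a gene were shared out over its annotated transcripts.

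Across the 19709 genes whose mean RPKM reached 0.1, H2A at 30 min read lower over GC-rich genes and higher over GC-poor genes (Spearman -0.846 across genes, which are not independent replicates). The median over all genes was -0.14 at 30 min and -0.03 at 60 min. The 9 genes spread over this range, from 35.97% GC at ZEB1 to 55.2% at SNAI1. The 30 min change of each of the 9 genes is therefore given as deposited and again with the GC trend of all genes taken off. At 60 min the changes off the trend lay between -0.07 at SNAI2 and 0.08 at VIM. CDH1 (-0.01 as deposited, 0.04 off the trend), TWIST1 (0.03 and -0.02) and FN1 (0.02 and -0.007) turned sign there.

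ZEB1 had the largest H2A change of the 9 genes as deposited. Its body (ENSG00000148516, chromosome 10, 31607766 to 31803609, plus strand, GRCh37 as for all positions) spans 195.8 kb. Its RPKM was 4.80 at 0 min, 6.05 at 30 min and 5.09 at 60 min, so the 30 min library stood above both others. The log2 change was 0.33 (counting standard error 0.02) at 30 min and 0.08 (0.03) at 60 min. With the GC trend taken off, 0.09 was left at 30 min, 3.77 counting standard errors, and 0.01 at 60 min. Among the 13789 other genes of at least 10 kb, 942 had a rise off the GC trend as large or larger. Only ZEB1 of the 9 genes was past 0.25 either way at 30 min, a rise, where 4.79% of all genes were past 0.25 upward and 29% downward. With the GC trend taken off none of the 9 was past it, against 2.35% of all genes upward and 1.74% downward. At 60 min none was past it with or without the GC trend, against 1.26% and 6.2% of all genes as deposited, and 2.24% and 1.8% off the trend.

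ZEB2 (ENSG00000169554, chromosome 2, 145187123 to 145275124, minus strand), the paralog of ZEB1, had an RPKM of 7.79 at 0 min, 8.18 at 30 min and 8.25 at 60 min. Its changes were 0.07 (standard error 0.04) and 0.08 (0.05), within 2 counting standard errors at both times. Those errors share its reads over 50 annotated transcripts, and are too large if the RPKM was made with fewer. At 30 min -0.005 was left off the GC trend, which turned the sign. ZEB1 (195.8 kb) and ZEB2 (88.0 kb) thus differed at 30 min in how far they lay from the trend. At 60 min ZEB2 lay further off it, at 0.05 against 0.01 for ZEB1. No replicate bears on either difference.

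Of the other factors, the 2 SNAI genes held few reads. SNAI1 (ENSG00000124216, chromosome 20, 48599536 to 48605423, plus strand), a short gene with 1 annotated transcript and about 496 reads at 0 min, had an RPKM of 0.598, 0.517 and 0.532 at 0, 30 and 60 min. Its change at 30 min was -0.19 (standard error 0.09) as deposited, -0.05 centred on the median of all genes and 0.10 with the GC trend taken off, so its direction turned with the scaling. SNAI2 (ENSG00000019549, chromosome 8, 49830327 to 49834299, minus strand), with the fewest reads of the 9, had 1.31, 1.21 and 1.26. Its change of -0.11 (standard error 0.13) at 30 min was within counting error, and it came to 0.03 centred and -0.08 off the trend. TWIST1 (ENSG00000122691, chromosome 7, 19060614 to 19156547, minus strand) had 1.27, 1.45 and 1.30, higher at 30 min than at the other times. Its change of 0.18 (standard error 0.03) at 30 min came to 0.004 off the GC trend. The table's TWIST1 body of 95.9 kb follows a long transcript that is annotated for nonsense-mediated decay. The coding transcript spans 2169 bases (chromosome 7, 19155091 to 19157259), so the TWIST1 value mostly covers DNA downstream of it.

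The cadherins read in opposite directions at 30 min as deposited, CDH1 lower and CDH2 higher. CDH1 (ENSG00000039068, chromosome 16, 68771128 to 68869451, plus strand) had an RPKM of 5.60 at 0 min, 4.88 at 30 min and 5.55 at 60 min, low in the 30 min library alone. The change was -0.20 (standard error 0.02) at 30 min and -0.01 (0.02) at 60 min. CDH2 (ENSG00000170558, chromosome 18, 25530930 to 25757410, minus strand) had 1.24, 1.39 and 1.30, with changes of 0.15 (standard error 0.03) and 0.07 (0.03). Off the GC trend both lay within 1 counting standard error of 0 at 30 min, with 0.002 for CDH1 and -0.01 for CDH2. CDH1 has 46.9% GC and CDH2 37.2%.

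The effector genes stayed near their 0 min level. VIM (ENSG00000026025, chromosome 10, 17271277 to 17279592, plus strand) had an RPKM of 6.11, 5.76 and 6.36, below its 0 min level at 30 min and above it at 60 min, with changes of -0.08 and 0.06 (standard errors 0.07 and 0.08). FN1 (ENSG00000115414, chromosome 2, 216225181 to 216300791, minus strand) had 8.41, 8.59 and 8.55, with changes of 0.03 and 0.02 (standard errors 0.03 and 0.04). Neither gene moved by 2 counting standard errors at any time, and at 30 min VIM came to 0.06 centred and 0.04 off the trend, and FN1 to 0.17 and -0.02.

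**Figure D1:**
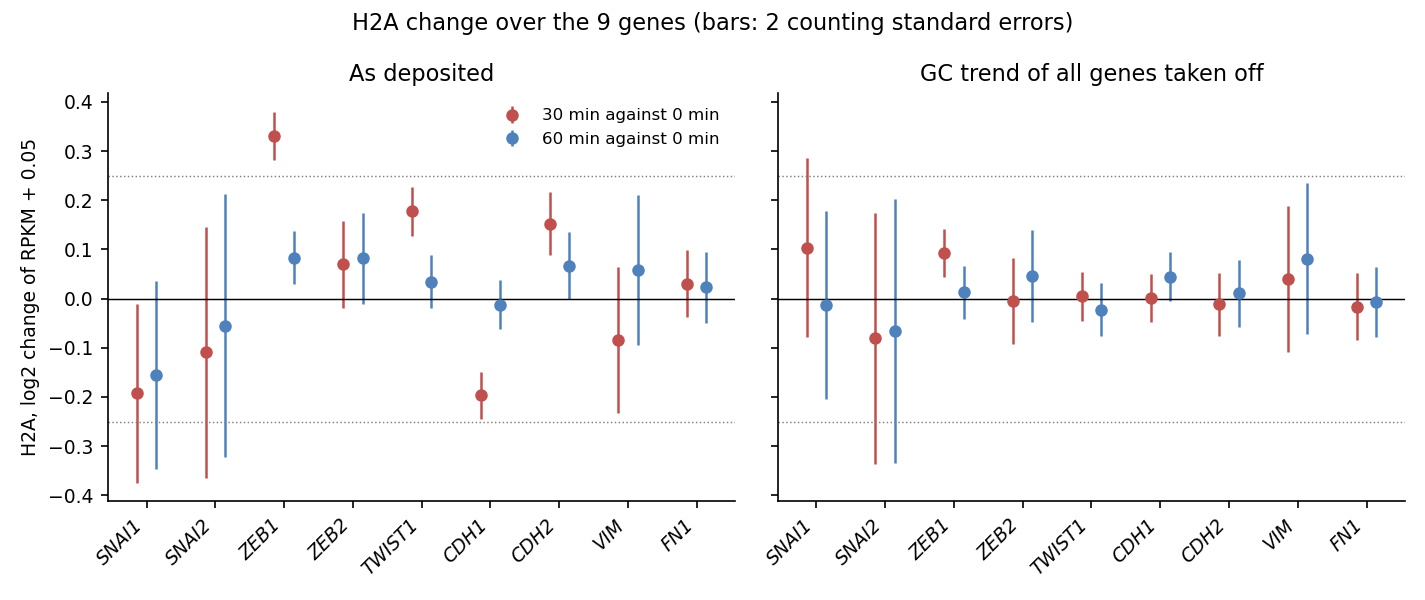
Log2 change of H2A over each gene against 0 min (points, red 30 min, blue 60 min), with bars of 2 counting standard errors and dotted lines at 0.25 either way. ZEB1 at 30 min lies past 0.25 as deposited and comes to 0.09 with the GC trend of all genes taken off, and the other genes lie between -0.20 and 0.18 as deposited.

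As a group the 9 genes had a median change of 0.03 at 30 min, with 5 higher and 4 lower, and of 0.03 at 60 min, with 6 higher and 3 lower. Centred on the median of all genes, the 30 min value was 0.17, and with the GC trend taken off it was 0.002. Over all genes 71.3% read lower at 30 min and 61.2% at 60 min. Of the 9 genes, 4 read higher at 30 min and came down by 60 min, as did 23.1% of all genes, and 4 read lower and came back up, as did 66.1%. In 8 genes the change at 60 min was nearer 0 than that at 30 min, as in 83.8% of all genes, and in 8 the sign was the same at both times, as in 80.9%. Both comparisons share the 0 min library. These are changes as deposited, where ZEB2 was the gene further from 0 at 60 min and VIM the one whose sign turned. Off the GC trend VIM kept its sign (0.04 and 0.08 at 30 and 60 min). SNAI1 (0.10 and -0.01), ZEB2 (-0.005 and 0.05), TWIST1 (0.004 and -0.02) and CDH2 (-0.01 and 0.01) turned sign there. ZEB2, TWIST1, CDH1 (0.002 and 0.04) and VIM then lay further from 0 at 60 min than at 30 min, and CDH2 about as far. Ranked by GC content the 9 genes came in almost the reverse order of their 30 min change (Spearman -0.967 over 9 genes, a description, since the points share their libraries and base composition).

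**Figure D2:**
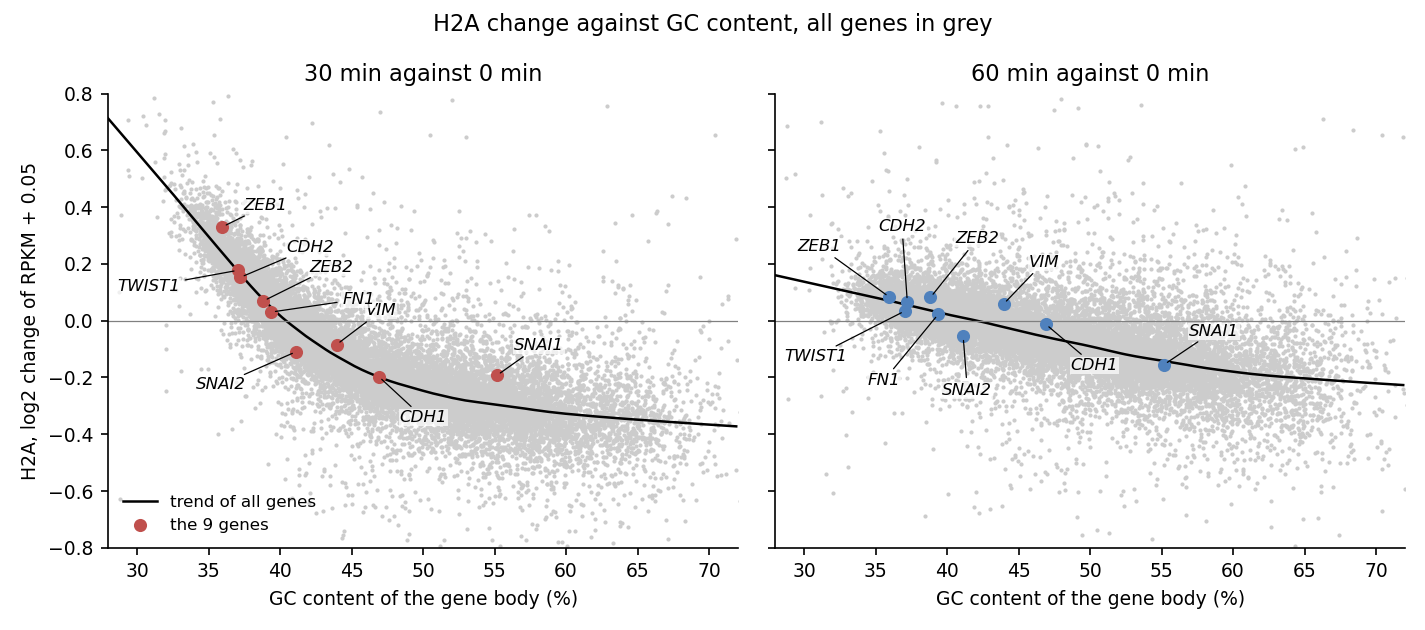
Log2 change of H2A against GC content of the gene body, for all genes (grey, those beyond the axes not drawn), their trend (line) and the 9 genes (coloured), at 30 min (left) and 60 min (right). At 30 min the 9 genes run along the line from ZEB1 at 35.97% GC to SNAI1 at 55.2%, with ZEB1 0.09 and SNAI1 0.10 above it and SNAI2 0.08 below it.

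The members were also set beside the other genes within 1 Mb. Within 1 Mb of ZEB1, 8 other genes had a median 30 min change of 0.12, from -0.05 to 0.24, all below the 0.33 of ZEB1. Their median off the GC trend was 0.05 and the highest 0.10, so ZEB1 was inside their range there. Around CDH1, 46 genes had a median of -0.23, and CDH3, the P-cadherin gene beside it, had -0.22 (RPKM 5.27, 4.51 and 5.05). CDH3 lay 0.003 off the trend, as close to it as CDH1. Around TWIST1, 5 genes had a median of 0.23, from -0.28 at FERD3L, a helix-loop-helix factor gene of 62.5% GC, to 0.34. FERD3L spans 640 bases, its counting standard error was 0.25, and it came to 0.06 off the trend. Near VIM, TRDMT1, which encodes an RNA methyltransferase, had 0.21 at 36.6% GC against the -0.08 of VIM at 43.95%. Off the trend these were 0.01 and 0.04. VIM and SNAI2 had the opposite sign to the median of their neighbours. That median was 0.09 over 9 genes around VIM, and 0.07 over 7 genes around SNAI2, which had -0.11.

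By distance over the 30 and 60 min changes off the GC trend, the genes of at least 10 kb most like ZEB1 were USP45, RABIF and BAZ1A. USP45 had 0.09 and 0.01 there, as ZEB1 did. Those most like CDH1 were SRBD1, NAALAD2 and MORF4L1. The likeness is over 2 changes that share a library.

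Related genes of the same switch were described from 6 lists, beside all genes, of which 71.3% read lower at 30 min, 29% were past -0.25 and 4.79% past 0.25. Of 10 other mesenchymal transcription factors, 7 read lower at 30 min, with a median of -0.19 and 4 past -0.25, from FOXC2, a forkhead factor, at -0.41 to the helix-loop-helix factor TCF4 at 0.15. Of 19 genes of mesenchymal matrix and cytoskeleton, 12 read lower, with a median of -0.16, 2 past 0.25 and 6 past -0.25. The fibronectin receptor gene ITGA5 had -0.34 and the collagen gene COL3A1 0.37. Of 18 genes of epithelial adhesion and polarity, 15 read lower, with a median of -0.20 and 4 past -0.25, from the tight junction gene CLDN3 at -0.40 to TJP1, of the same junctions, at 0.06. Of 8 guardians of the epithelial state, 7 read lower, with a median of -0.20 and 3 past -0.25, from the factor gene OVOL1 at -0.33 to the splicing regulator ESRP1 at 0.04.

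For transforming growth factor beta, an inducer of the switch, 6 of 9 genes read lower, with a median of -0.08 and 1 past -0.25. SMAD7, the inhibitory member, had -0.29 and the signal carrier SMAD2 0.18. Of 9 corepressor genes used by SNAI1 and ZEB1, 4 read lower and 5 higher, with a median of 0.03 and 3 past -0.25, from CTBP1 at -0.32 to the deacetylase gene HDAC2 at 0.23. The median GC of these lists ran from 41% for the corepressors to 53.35% for the other factors. With the GC trend taken off, the medians at 30 min lay between -0.02 for the corepressors and 0.02 for the guardians. Adhesion and polarity then had -0.005 (10 of 18 lower) and matrix and cytoskeleton -0.02 (12 of 19 lower). The other factors had 5 lower and 5 higher, and of the guardians 6 of 8 were higher. Transforming growth factor beta had 6 of 9 lower and the corepressors 5 of 9. Of all 19709 genes, 10192 were lower and 9517 higher off the trend at 30 min. The tight junction gene CLDN7, named after its values were seen as the 1 listed gene past 0.25 off the trend, had 0.41 there (0.06 as deposited, standard error 0.17). At 60 min the medians as deposited lay between -0.14 for the other factors and 0.02 for transforming growth factor beta. Off the trend at 60 min, the other factors had a median of -0.02 (7 of 10 lower), with FOXC2 at -0.23. Matrix and cytoskeleton had -0.01 (10 of 19 lower), with the surface protein gene THY1 at -0.14. FOXC2 and THY1 were the lowest of their lists as deposited at 60 min, and their counting standard errors are not given. Adhesion and polarity had 0.02 (11 of 18 higher) and the guardians 0.03 (6 of 8 higher). Transforming growth factor beta had 0.01 (6 of 9 higher) and the corepressors -0.02 (6 of 9 lower). Of all 19709 genes, 9909 were lower and 9800 higher off the trend at 60 min.

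Peaks of HP1γ, LSD1 and BPTF were then read over each gene body plus 50 kb on each side. Of 62 peaks in these windows, 19 were of HP1γ at 0 min, 9 of HP1γ at 30 min, 17 of LSD1 at 0 min, 13 of LSD1 at 30 min, 3 of displaced BPTF and 1 of recruited BPTF. Exact Poisson 95% intervals, which cover counting only and treat peaks as independent, were 11.4 to 29.7, 4.1 to 17.1, 9.9 to 27.2 and 6.9 to 22.2 for the first 4 lists. The same window lengths at the density of each gene's chromosome would hold 15.4, 11.5, 16.2 and 9.88 peaks, all inside these intervals. HP1γ was at 6 of 9 genes at 0 min and 3 at 30 min, against 53.4% and 50% of all genes. LSD1 was at 6 genes at both times, against 44.3% and 49.8%. The scores of these peaks, as deposited by the authors, ran from 30.05 to 55.81 with 30 as the lower bound of the lists, and none was in the top 5% of its list. For HP1γ the median score was 36.49 at 0 min and 38.02 at 30 min, against 35.63 and 37.34 over the lists. For LSD1 it was 32.99 and 33.80, against 36.26 and 36.13.

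**Figure D3:**
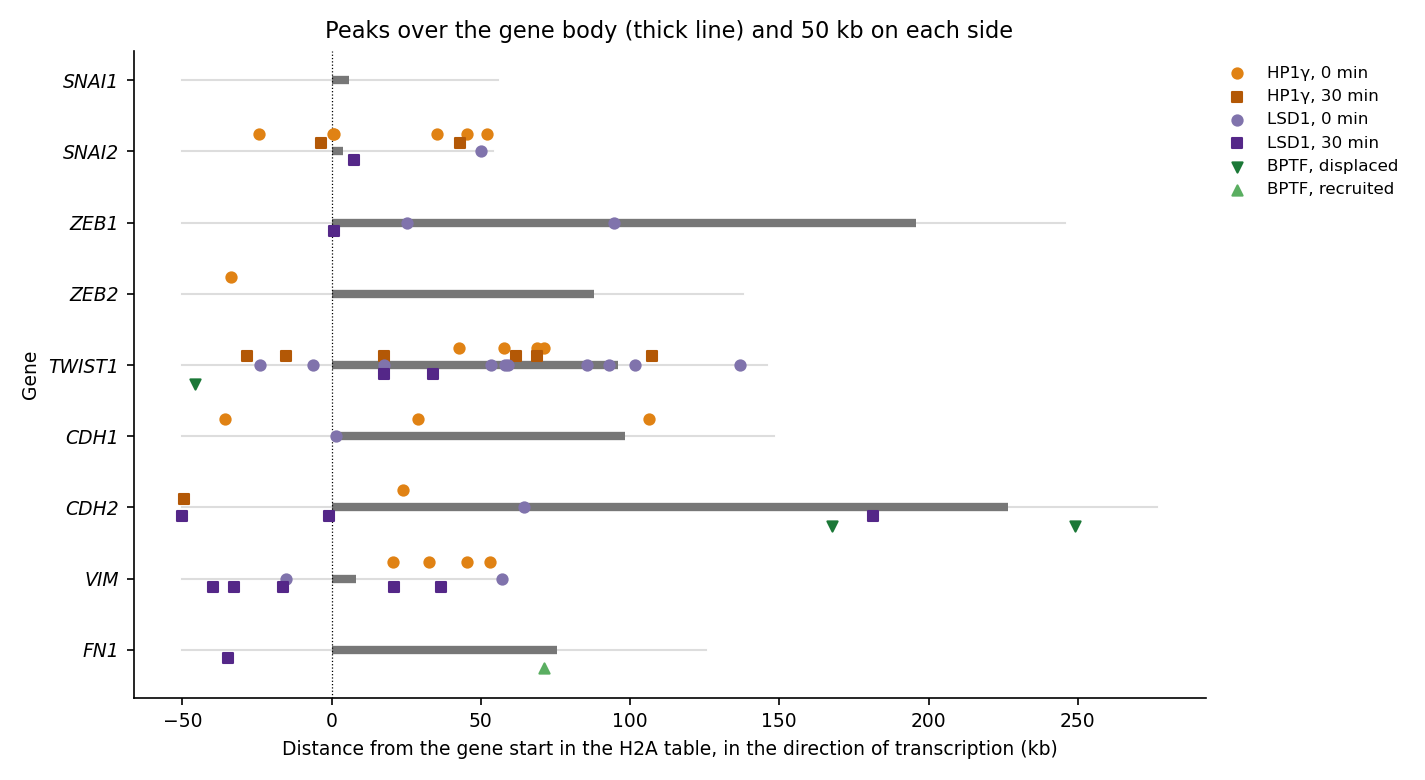
Centres of the peaks (symbols, by protein and time) along each gene, in kb from the gene start in the H2A table, with the gene body as a thick line and 50 kb on each side as a thin line. TWIST1 holds the most peaks, VIM holds peaks on both sides of its short body and none in it, and SNAI1 holds none.

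Near CDH1, peaks were listed at 0 min only. LSD1 had 1 peak at 0 min in an intron 1417 bases from the gene start (chromosome 16, 68772296 to 68772795, score 43.09), the highest of the LSD1 scores at 0 min in these windows. HP1γ had 3 peaks at 0 min, the nearest to the start in an intron at 28.8 kb (score 35.83) and the highest-scored downstream of the gene at 106.4 kb (44.98). The intronic HP1γ peak lay 913 bases from the nearest annotated start and 28681 bases from the nearest start of a coding transcript. At 30 min no HP1γ or LSD1 peak was listed, while the chromosome went from 765 to 503 HP1γ peaks and held 473 LSD1 peaks at both times. A peak that is missing from a list may lie just under its lower bound, and the depth of these libraries is unknown.

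At ZEB1 an LSD1 peak at the start was listed at 30 min only. At 0 min LSD1 had 2 intronic peaks at 25.1 kb and 94.5 kb from the start (scores 32.42 and 35.26). Neither recurred, and at 30 min 1 peak was listed, at 749 bases from the start of the table and 364 from the nearest annotated start (chromosome 10, 31608344 to 31608688, score 35.54). Its score was above 47.2% of the LSD1 list at 30 min, and a peak unlisted at 0 min may lie just under the lower bound. No HP1γ or BPTF peak lay in the ZEB1 window, although its chromosome held 2336 HP1γ peaks at 0 min and 1700 at 30 min. ZEB2 had 1 HP1γ peak, 33.7 kb upstream of its start at 0 min (score 36.98), and no LSD1 peak. It lies on chromosome 2, which has few peaks, at 1.46 per Mb of HP1γ and 1.09 of LSD1 at 0 min. SNAI1 had no peak in any list.

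At CDH2 an LSD1 peak near the start was listed at 30 min only. LSD1 had 1 intronic peak at 64.4 kb at 0 min (score 32.40) and 3 at 30 min, of which the nearest lay 971 bases upstream of the table's start and 471 upstream of the nearest annotated start (chromosome 18, 25758176 to 25758587, score 33.32). The others lay at 181.4 kb, in an intron, and 49.97 kb upstream. The score of the peak near the start was above 32.1% of the LSD1 list at 30 min. A weak peak there at 0 min may have gone unlisted. HP1γ had 1 peak at each time, at 23.8 kb in the body at 0 min and 49.3 kb upstream at 30 min. BPTF was displaced at 2 positions, in an intron at 167.6 kb and downstream of the gene at 249.0 kb, where chromosome 18 held 29 displaced peaks in all.

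TWIST1 had the densest LSD1 of the 9 genes before hormone. Its window held 10 LSD1 peaks at 0 min (51.0 per Mb, against 17.6 for chromosome 7) and 2 at 30 min (10.2 against 8.72). HP1γ went the other way in number, from 4 peaks to 6 (20.4 and 30.6 per Mb, against 15.1 and 10.8). The LSD1 density at 0 min was above that of 95.5% of all gene windows, and the HP1γ density at 30 min above that of 95.25%. Of the 10 LSD1 and 4 HP1γ peaks at 0 min, 1 each recurred at 30 min. These were the only kept positions in the 9 windows, 1 of 19 HP1γ peaks and 1 of 17 LSD1 peaks, against 4.31% and 3.71% over all peaks. At 17.6 kb from the table's start the kept LSD1 peak (scores 30.31 at 0 min and 37.34 at 30 min) also overlapped an HP1γ peak of 30 min (44.97). The kept HP1γ peak lay at 68.7 kb, and BPTF was displaced 45.8 kb upstream of the start. Within 50 kb of the short coding transcript, a window chosen after the peaks were seen, LSD1 had 3 peaks at 0 min and 2 at 30 min, and HP1γ 1 and 3.

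At SNAI2 HP1γ peaks over the start were listed at 0 min only. Of 6 HP1γ peaks at 0 min, 1 lay in the untranslated region 49 bases from an annotated start (score 55.04, above 93.3% of the list) and another 610 bases from it in an intron (38.67). At 30 min neither was listed, and the 2 HP1γ peaks lay 3.44 kb upstream and 43.1 kb downstream of the start. The density went from 57.7 to 19.2 per Mb, against 20.6 and 14.4 on chromosome 8, and the first value was above that of 97.7% of all gene windows. LSD1 had 1 peak at each time, 49.9 kb and 7.42 kb downstream of the start.

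VIM differed between the 2 proteins. HP1γ had 4 peaks downstream of the gene at 0 min, 20.7 to 53.2 kb from the start, and none at 30 min. LSD1 went from 2 peaks to 5 (18.5 and 46.2 per Mb, against 19.97 and 9.84 on chromosome 10), and the 30 min density was above that of 99.4% of all gene windows. At 20.9 kb an LSD1 peak of 30 min (score 36.00) overlapped an HP1γ peak of 0 min at 20.7 kb (36.07). The highest-scored LSD1 peak at 30 min lay at 36.7 kb (45.72), and none lay in the VIM body. Of the 5, 2 lay in the body of the neighbouring gene TRDMT1. FN1 had no HP1γ peak and 1 LSD1 peak, 34.6 kb upstream at 30 min. It held the recruited BPTF peak of the 9 windows, in an intron at 71.0 kb of its 75.6 kb body (chromosome 2, 216229516 to 216229995), where chromosome 2 held 49 recruited peaks. That peak lay 485 bases from the nearest annotated start and 10657 bases from the nearest start of a coding transcript. BPTF was recruited at 12.1% and displaced at 18.3% of all genes, counted in the same way.

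Between 0 and 30 min, HP1γ peaks became fewer at 4 genes (SNAI2, ZEB2, CDH1 and VIM), more at TWIST1 and equal at 4, of which 3 had no peak at either time, where 35.7% of all genes had fewer and 21.3% more. The total went from 19 to 9 (-52.6%), against -25.1% over all peaks. LSD1 became fewer at ZEB1, TWIST1 and CDH1, more at CDH2, VIM and FN1, and equal at 3, of which 2 had no peak at either time, where 30.3% of all genes had fewer and 23.8% more. Its total went from 17 to 13 (-23.5%), against -41.4% over all peaks. The exact intervals of the 0 and 30 min totals overlap for both proteins.

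**Figure D4:**
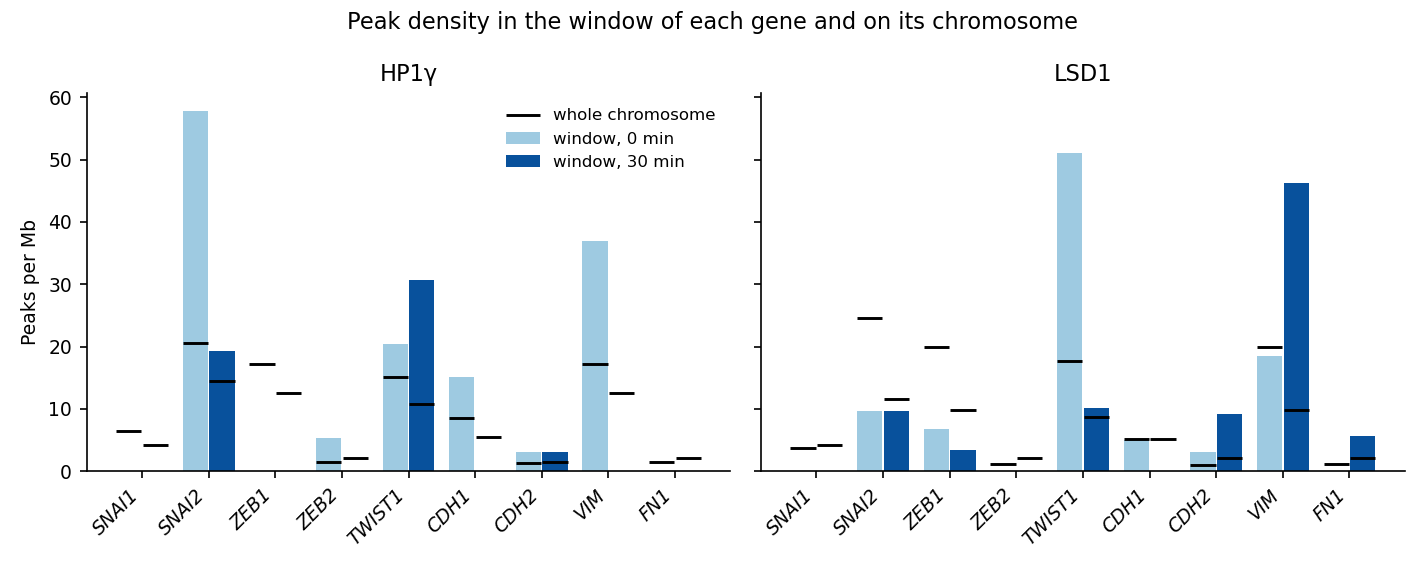
Peaks per Mb in the window of each gene at 0 min (light bars) and 30 min (dark bars), for HP1γ (left) and LSD1 (right), with the density of the gene's whole chromosome at the same time as a black line. Above their chromosomes for HP1γ are SNAI2, ZEB2, TWIST1, CDH1, CDH2 and VIM at 0 min and SNAI2, TWIST1 and CDH2 at 30 min, and for LSD1 TWIST1 and CDH2 at 0 min and TWIST1, CDH2, VIM and FN1 at 30 min, where ZEB2 (HP1γ, 0 min), CDH2 (HP1γ at both times, LSD1 at 0 min) and FN1 (LSD1, 30 min) rest on 1 peak each.

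The DNA under 5 positions picked from the peaks above is shown as the central 300 bases of the peak. It is on the strand of the gene, from the GRCh37 reference. The positions are the LSD1 peaks nearest the starts of CDH1 (0 min), ZEB1 and CDH2 (30 min), the TWIST1 position found in 3 lists, and the recruited BPTF peak of FN1. Capitals mark CACCTG, the E-box of the SNAI and ZEB factors, and TGTTCT, an arm of the progesterone response element, both searched on both strands. CACCTG and TGTTCT can overlap, but do not in the sequences shown.
CDH1, chr16:68772396-68772695, plus strand: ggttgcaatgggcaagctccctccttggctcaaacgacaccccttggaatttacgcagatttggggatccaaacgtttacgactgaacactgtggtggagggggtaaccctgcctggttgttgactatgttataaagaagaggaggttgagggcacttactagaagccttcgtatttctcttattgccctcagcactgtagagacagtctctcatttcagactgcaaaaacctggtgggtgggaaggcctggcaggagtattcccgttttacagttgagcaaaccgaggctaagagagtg
ZEB1, chr10:31608366-31608665, plus strand: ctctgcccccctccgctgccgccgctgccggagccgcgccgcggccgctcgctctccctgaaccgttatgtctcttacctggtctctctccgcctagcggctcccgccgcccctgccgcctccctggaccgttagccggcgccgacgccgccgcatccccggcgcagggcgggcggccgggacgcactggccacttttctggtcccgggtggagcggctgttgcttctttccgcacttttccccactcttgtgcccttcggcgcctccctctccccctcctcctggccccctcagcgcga
CDH2, chr18:25758232-25758531, minus strand: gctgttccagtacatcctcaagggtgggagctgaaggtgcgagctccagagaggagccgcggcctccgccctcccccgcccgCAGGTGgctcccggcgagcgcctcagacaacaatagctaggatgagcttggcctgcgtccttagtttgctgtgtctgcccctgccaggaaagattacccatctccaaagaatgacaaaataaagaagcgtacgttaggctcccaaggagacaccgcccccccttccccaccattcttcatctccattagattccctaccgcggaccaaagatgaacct
TWIST1, chr7:19138727-19139026, minus strand: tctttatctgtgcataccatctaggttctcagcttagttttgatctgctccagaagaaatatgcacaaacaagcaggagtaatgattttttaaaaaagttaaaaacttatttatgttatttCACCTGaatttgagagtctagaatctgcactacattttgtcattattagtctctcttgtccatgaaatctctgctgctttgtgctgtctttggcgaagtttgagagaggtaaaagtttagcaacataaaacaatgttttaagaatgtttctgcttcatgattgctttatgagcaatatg
FN1, chr2:216229606-216229905, minus strand: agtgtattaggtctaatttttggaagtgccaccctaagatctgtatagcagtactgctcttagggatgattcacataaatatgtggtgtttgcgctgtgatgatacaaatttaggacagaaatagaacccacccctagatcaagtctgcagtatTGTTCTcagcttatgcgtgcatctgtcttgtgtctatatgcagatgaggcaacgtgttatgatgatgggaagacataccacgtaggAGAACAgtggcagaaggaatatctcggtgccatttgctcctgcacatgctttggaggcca

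The ZEB1 sequence was 73% GC with 36 CpG dinucleotides, in contrast to the 35.97% GC of the whole gene body. The CDH2 sequence was 58% GC with 15 CpG and held 1 E-box. The TWIST1 sequence, at 33.3% GC with 1 CpG, also held 1 E-box. The CDH1 sequence (49.7% GC, 7 CpG) held neither motif, and that of FN1 held 2 arms of the response element. The full palindromic progesterone response element was in none of them. Over all 6 lists it was in 12 of 118560 peak windows (0.01%), so its absence here carries little information.

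Over all 62 peaks in the windows, the central 300 bases held the E-box in 15 and the response element arm in 14. Peaks of different lists that overlap were each counted, so the 62 are not all separate stretches of DNA. The E-box shown for the TWIST1 position lies in overlapping peaks of LSD1 at 0 and 30 min and of HP1γ at 30 min. It therefore enters the total of 15 more than once, and the count of each of those lists once. Whether other overlapping peaks share a match was not counted. The shares over all peaks of the lists were between 13.4% and 24.1% for the E-box and between 23.7% and 27.7% for the arm. For LSD1 at 30 min the E-box was in 6 of 13 peaks, at CDH2, TWIST1 and VIM, against 19.7% of that list. For LSD1 at 0 min it was in 3 of 17, against 15.0%. For HP1γ it was in 4 of 19 at 0 min, against 23.5%, and in 2 of 9 at 30 min, against 19.1%. The matches describe letters in these windows and not bound sites.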

How the data were processed

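The series holds 9 ChIP-seq libraries of T47D-MTVL cells in 9 groups by antibody and time, taken from the sample titles. Bowtie 1.0.0 and HOMER 4.7.2 are named in the submitters' processing notes, with hg19 (GRCh37). The deposited H2A table gives RPKM made by the authors with HOMER over version 18 of GENCODE, both strands counted, per the file headers. For HP1γ and LSD1 the deposited files give each peak a score. The deposited BPTF lists hold positions only. The definition of the score, the caller, its control and the criterion for a BPTF change are not given in the sources used here.

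Members and related gene lists were chosen with earlier results of these data known. All 9 members, the highest and lowest gene of each list, the nearest neighbours and the 3 genes with the nearest pattern to ZEB1 and CDH1 were named. Depth was recovered as the spacing of length times RPKM in genes with 1 transcript and under 600 bp. All 16, 19 and 19 low values used at 0, 30 and 60 min came out within 0.1 of a whole read. The depth of the peak libraries is unknown. Changes were log2 ratios with a pseudocount of 0.05 over genes whose mean RPKM reached 0.1. The GC trend was a lowess curve (span 0.2, statsmodels 0.14.6) over gene bodies of the GRCh37 reference. Transcript numbers came from version 44 of GENCODE lifted to GRCh37, to which 96.5% of genes matched. Where version 44 lists more transcripts than version 18, the counting errors are too large, and where fewer, too small. A change past 0.25 was counted. A peak was in a window, or shared between lists, with an overlap of at least 1 bp. Depth recovery, detrending and overlaps were tested on simulated data. Another pseudocount, filter, fold, centring, window, score minimum and overlap were tried.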

Additional observations from a re-analysis of the deposited data

Results flagged for a closer look

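As deposited, VIM was the gene of the 9 whose H2A change had opposite signs at the 2 times. It was -0.08 at 30 min and 0.06 at 60 min against the same 0 min library. Each time had 1 library, so the difference between the times was not tested. Both values lie within 2 counting standard errors of 0, and with the GC trend of all genes taken off they were 0.04 and 0.08. SNAI1, ZEB2, TWIST1 and CDH2 had opposite signs at the 2 times off the trend.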

How the results depend on the processing

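No paired analysis was possible because each group holds 1 library, and no library could be left out. The number of the 9 genes past 0.25 at 30 min, which was 1, came to 3 when centred on the median of all genes (ZEB1, CDH2 and TWIST1), to 0 with the GC trend taken off and to 0 at a fold of 0.5. The share of all genes past 0.25 on centring was not counted, so whether 3 is many or few cannot be said. The 30 min changes of ZEB1, CDH2 and TWIST1 were above those of 98.0%, 88.6% and 90.5% of all genes, ranks that centring leaves unchanged. The median of the 9 genes at 30 min moved from 0.03 to 0.17 on centring. At 60 min the number stayed at 0 and the median between 0.01 and 0.07 under the alternatives run. Of 18 single changes (9 genes at 2 times), 8 moved by more than 2 counting standard errors with the GC trend taken off, 6 on centring, and none with a pseudocount of 0.5 or 0.01 or without the filter. Peak totals depended on the window, as its length sets them. With 5 kb on each side they were 8 and 4 for HP1γ at 0 and 30 min, 10 and 6 for LSD1, and 1 for displaced BPTF. With 100 kb they were 29 and 18 for HP1γ, 29 and 20 for LSD1, and 2 for recruited BPTF. At a score of at least 50, HP1γ had 2 and 0 and LSD1 0 and 0. The kept positions were 1 for each protein also at an overlap of 50% of the shorter peak. For TWIST1, the window of the coding transcript gave 1 and 3 HP1γ peaks and 3 and 2 LSD1 peaks at 0 and 30 min. The unknown depth of the peak libraries limits every comparison of peak numbers between times.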
